A study of Mus musculus with 14 samples.

Results

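The genes described here make, regulate, export and store cholesterol or make fatty acids, with lipoprotein lipase added as a gene of lipid uptake. They were taken by symbol, 35 genes of the 52459 in the deposited count table, and all 35 had enough reads to be tested. The study sorted cells of dispersed pancreatic islets of C57BL/6J mice, all male and aged 7 months, on acidic beta-galactosidase activity, a lysosomal activity widely used as a marker of senescence. RNA sequencing covered polyadenylated RNA of 7 libraries from cells with the activity (positive) and of 7 from cells without it (negative). The libraries carry the numbers 1 to 7 in each group. The labels name no other sorting marker, so both groups can hold any islet cell. The series title places the libraries in a study of beta cell aging, and the comparison asked which transcripts set apart the cells that carried the marker.

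Cholesterol is built from acetyl units through the mevalonate pathway, whose products are joined into squalene. A later set of enzymes closes squalene into rings and trims it to cholesterol. The genes of these enzymes are known as shared targets of the transcription factor SREBP2, which is held in the endoplasmic reticulum by INSIG proteins when sterols are plentiful, is carried to the Golgi by SCAP when they are scarce, and there is cut to its active form. SREBP1, in its 1c form, has the same role for fatty acid synthesis, while the oxysterol receptors LXR-alpha and LXR-beta switch on the cholesterol exporters. In beta cells, cholesterol content is known to bear on insulin granules and on secretion.

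Promoters are shown because the sterol enzymes are known to be controlled together through them. RefSeq promoter sequences on GRCm38.p6 were matched for 27 of the 35 genes, and the 250 bases before each start were searched on both strands for the SREBP element TCACNCCAC, the GC box CCGCCC, the E-box CACGTG and the NF-Y box CCAAT, which reads ATTGG where it lies on the opposite strand. The 5 printed here belong to Hmgcs1 and Acly, called lower with the replicate number as a block, and to Sc5d, Ebp and Fasn, which were not called. Their windows lie before the annotated start of their own gene. Whether exons of other genes reach into them was not tested. Capitals mark matches to these motifs other than the GC box.
Hmgcs1 promoter, chr13:119690101-119690350 (+ strand): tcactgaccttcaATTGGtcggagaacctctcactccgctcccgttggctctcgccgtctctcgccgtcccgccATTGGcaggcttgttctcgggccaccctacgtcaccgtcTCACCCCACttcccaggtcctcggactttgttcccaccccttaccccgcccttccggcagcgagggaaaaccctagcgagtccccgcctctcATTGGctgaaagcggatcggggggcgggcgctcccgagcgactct
Sc5d promoter, chr9:42264301-42264550 (- strand): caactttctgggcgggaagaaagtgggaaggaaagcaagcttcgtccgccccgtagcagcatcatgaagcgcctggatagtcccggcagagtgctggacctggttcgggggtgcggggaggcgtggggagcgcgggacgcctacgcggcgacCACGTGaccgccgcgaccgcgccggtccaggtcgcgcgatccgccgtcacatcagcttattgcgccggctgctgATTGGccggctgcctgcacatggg
Ebp promoter, chrX:8193513-8193762 (- strand): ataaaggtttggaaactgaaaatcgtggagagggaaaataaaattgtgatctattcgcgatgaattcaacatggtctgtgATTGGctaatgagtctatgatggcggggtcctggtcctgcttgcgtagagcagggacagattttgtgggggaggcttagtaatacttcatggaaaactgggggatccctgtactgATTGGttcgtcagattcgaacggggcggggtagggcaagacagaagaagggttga
Fasn promoter, chr11:120824548-120824797 (- strand): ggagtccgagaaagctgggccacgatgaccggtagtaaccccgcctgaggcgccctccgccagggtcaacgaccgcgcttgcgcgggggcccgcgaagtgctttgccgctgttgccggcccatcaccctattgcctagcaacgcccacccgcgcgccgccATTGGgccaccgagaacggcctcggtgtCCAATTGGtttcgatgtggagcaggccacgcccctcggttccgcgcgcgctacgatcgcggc
Acly promoter, chr11:100528001-100528250 (- strand): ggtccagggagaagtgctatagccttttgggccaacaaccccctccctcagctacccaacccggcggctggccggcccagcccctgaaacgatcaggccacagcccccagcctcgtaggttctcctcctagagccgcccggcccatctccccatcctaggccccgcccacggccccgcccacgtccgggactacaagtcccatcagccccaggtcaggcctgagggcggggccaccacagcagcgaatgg
The SREBP element was found in 1 of the 27 genes, Hmgcs1, at 137 bases before the start, against 1.22% of all 27025 genes with a promoter in the table. Only exact matches to this sequence within the window were counted, so a gene without one may hold another form or a more distant element. No promoter was matched for Fdps, Fdft1, Sqle, Stard4, Abcg1, Scd1, Scd2 and Lpl. The NF-Y box was present in 14 of 15 sterol synthesis genes (93.3%), in 4 of 5 regulators, in 1 of 4 transport and storage genes, Soat1, and in 1 of 3 fatty acid synthesis genes, Fasn, against 37.5% of all genes. The GC box was as frequent among sterol synthesis genes, in 14 of 15 (93.3%), and was present in 5 of 5 regulators, 1 of 4 transport and storage genes and 1 of 3 fatty acid synthesis genes, against 35.4% of all genes. In the Fasn promoter, NF-Y box matches on opposite strands overlap at 62 and 59 bases before the start. The E-box was present in 6 of the 27 (22.2%), namely Abca1, Dhcr7, Hsd17b7, Insig1, Sc5d and Scap, against 6.86% of all genes. A gene with several starts was counted once if any of its windows held the motif. Both Hmgcs1, which fell within pairs, and Ebp, whose log2 fold change was -0.03, carry NF-Y boxes.

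The differences of the 35 genes were small, all below 1.5-fold, and the share of them called depended on the fit. Values are CPM, a gene's count scaled to its library's total with TMM factors, and genes were compared with edgeR's quasi-likelihood test, called at a Benjamini-Hochberg adjusted p below 0.05 over all 16350 genes tested. By this test 2 of the 35 were called, Abcg1 higher and Lpl lower in positive cells (5.71%, against 8.03% of all genes tested). Over all genes, 6.40% were called higher and 1.63% lower. Numbered libraries resembled each other across the groups, and once that number entered the fit as a block, 9 of the 35 were called (25.7%, against 19.6% of all genes). Of these, Fdps and Abcg1 were higher, and Hmgcs1, Idi1, Nsdhl, Srebf1, Stard4, Acly and Lpl were lower. The 7 lower calls are 20% of the genes, against 7.77% of all genes called lower with the block, and the 2 higher calls compare with 11.8%. In point estimates 26 of the 35 lay below 0, with a median log2 fold change of -0.07, while the median of all genes was 0. Of the 35, Hmgcs1, Idi1, Nsdhl, Srebf2 and Lpl had the lower value in the positive member of 7 of 7 pairs, as did 6.93% of all genes, and Abcg1 had the higher value in all 7, as did 11.1%. The 2 groups overlapped in CPM for every one of the 35, whereas they did not overlap for 3.50% of all genes on the higher and 0.355% on the lower side.

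**Figure D1:**
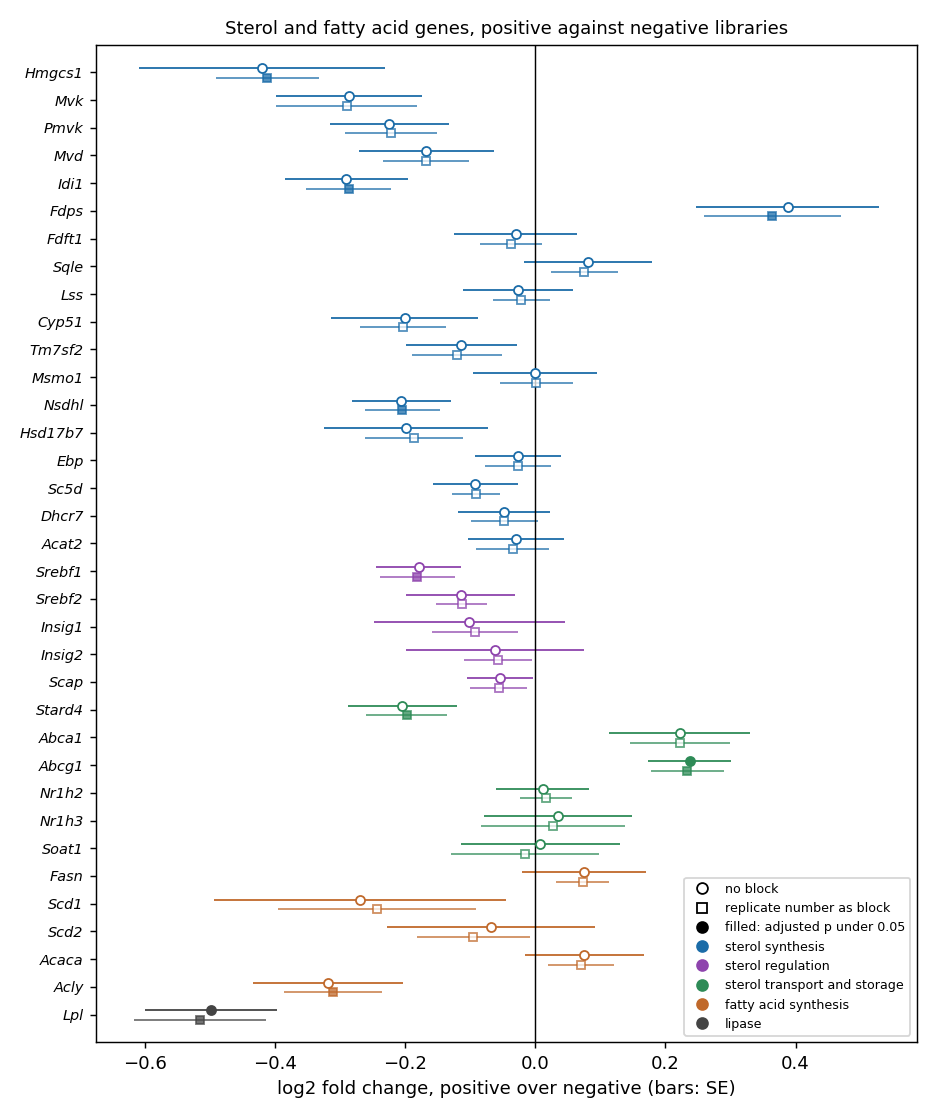
Log2 fold change of each of the 35 genes, positive over negative libraries (x axis; bars are standard errors, n = 7 libraries each), in the fit without the block (circles) and with the replicate number as a block (squares). Filled symbols passed an adjusted p of 0.05: Abcg1 and Lpl in both fits, and 7 more genes with the block. Most sterol synthesis and regulation genes lie a little left of 0.

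The libraries differed in cell mix as well as in the sort. Insulin transcript Ins2 ranged from 60140 to 80650 CPM in positive and from 60430 to 93570 CPM in negative libraries, so both were rich in beta cell RNA. The summed level of 22 beta cell genes was 120500 ± 11060 CPM in positive and 140300 ± 16060 CPM in negative cells (SD, n = 7 each), and 4 of the 22 were called lower (13 with the block), with a median log2 fold change of -0.28. Macrophage and endothelial markers summed to 116.8 to 1222 and 437.8 to 1465 CPM in positive libraries, and to 19.33 to 32.47 and 8.50 to 82.45 CPM in negative libraries, with 21 of 21 and 19 of 19 tested markers called higher. Acinar markers summed to 38.92 to 1094 CPM in positive and 172 to 1733 CPM in negative libraries, with 5 of 18 tested called lower (15 with the block). Alpha cell markers summed to 5632 to 29220 CPM in positive and 13190 to 30470 CPM in negative libraries. Of these 1 of 9 tested was called lower (2 with the block), with a median log2 fold change of -0.46. Delta cell markers summed to 308.8 to 2199 CPM in positive and 82.08 to 435.6 CPM in negative libraries, with 2 of 3 tested called higher. Of pericyte and fibroblast markers, 6 of 13 tested were called higher. Positive libraries 6 and 7 stood apart, with 867.7 to 1222 CPM of macrophage markers against 116.8 to 182.7 CPM in positive libraries 1 to 5. Their endothelial markers were also higher, at 1404 to 1465 against 437.8 to 1113 CPM. Positive 7 had the highest delta (2199 CPM) and alpha (29220 CPM) sums of the positive libraries. At lower levels negative libraries 6 and 7 differed from negative libraries 1 to 5 as well. They had 31.85 to 32.47 against 19.33 to 22.78 CPM of macrophage markers, and 74.11 to 82.45 against 8.50 to 17.37 CPM of endothelial markers. Negative library 3 stood apart too, with 1484 CPM of pericyte and fibroblast markers against 17 to 76.59 CPM in the other negative libraries, and with the lowest beta cell sum of them, 106800 CPM against 140000 to 158800 CPM. Without it 7 of the 35 genes were called without the block, all lower (Hmgcs1, Pmvk, Idi1, Srebf1, Stard4, Acly and Lpl). Of all 16607 genes then tested 1883 were called (11.3%), 1267 higher and 616 lower. The part of this mix in the results below was not tested beyond leaving out libraries. In such bulk libraries fewer cells of a type and less RNA per cell cannot be told apart.

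Among the 18 sterol synthesis genes none was called without the block, 6 had an unadjusted p below 0.05 (as did 3457 of all 16350 genes), and 16 had a point estimate below 0, with a median log2 fold change of -0.10. DESeq2 called 1 of them, Idi1, and 9.31% of the 22322 genes it tested. With the block Hmgcs1, Idi1 and Nsdhl fell and Fdps rose, and 14 were not called. These 4 are 22.2% of the 18, near the 19.6% of all genes called with the block. The 3 lower calls are 16.7%, against 7.77% of all genes. Summed over the 18, their level was 1345 to 1689 CPM in positive libraries (median 1528) and 1394 to 1864 CPM in negative libraries (median 1719). The 2 ranges overlap, and the positive sum was the lower one in 6 of 7 pairs. The exception was number 3, with 1498 CPM in the positive and 1394 CPM in the negative library. Much of the gap lay in 1 abundant gene, so the sum does not describe the 18 alike. The sums averaged 1536 CPM in positive and 1660 CPM in negative libraries, and Hmgcs1 alone averaged 243.4 and 325.7 CPM.

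Hmgcs1 encodes HMG-CoA synthase, which makes the substrate of the rate-limiting step of the mevalonate pathway (chromosome 13, 119690379 to 119708260, plus strand, GRCm38). Its level was 147.1 to 352.8 CPM in positive libraries, with a median of 241.5, and 161.8 to 386.6 CPM in negative libraries, with a median of 353.6. The lowest library of both groups carried the number 3, and the positive library was below its negative partner in 7 of 7 pairs. The groups averaged 243.4 ± 61.1 CPM in positive and 325.7 ± 77.8 CPM in negative cells (SD, n = 7 each), which is a log2 fold change of -0.42 ± 0.19 (SE, edgeR adjusted p = 0.214). With the block the log2 fold change was -0.41 ± 0.08 (adjusted p = 0.00468). Without negative library 3 the gene was called without the block too (-0.55, adjusted p = 0.019). An antisense gene, Gm48342, overlaps 12.1% of its exon bases, and 11.6% of its 50-base words are found in other transcripts.

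Idi1, isopentenyl-diphosphate isomerase, which interconverts the building units of isoprenoids, showed the lowest adjusted p of the group without the block. Positive libraries held 16.39 to 22.46 CPM (median 18.81) and negative libraries 20.28 to 28.73 CPM (median 23.69). Every positive library lay below its own partner, although the groups overlap between 20.28 and 22.46 CPM. The log2 fold change was -0.29 ± 0.10 (SE, n = 7 each, adjusted p = 0.0773), and -0.29 ± 0.07 with the block (adjusted p = 0.0106). Without the block it was called when negative 3 (adjusted p = 0.0403) or positive 5 (0.0348) was left out, and by DESeq2 (0.0469). Of the 50-base words of Idi1, 25.3% also occur in transcripts of other genes, among them Gm13502, so its count is uncertain.

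Nsdhl, a dehydrogenase that helps remove the methyl groups of early sterols, was at 12.95 to 16.73 CPM in positive libraries (median 14.37) and 15.28 to 19.13 CPM in negative libraries (median 15.79). It too was lower in 7 of 7 pairs, with a log2 fold change of -0.21 ± 0.08 (SE, edgeR adjusted p = 0.119; 0.0281 with the block). Without the libraries numbered 6 and 7 the block no longer called it (-0.24, adjusted p = 0.0624).

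Fdps, farnesyl diphosphate synthase, went the other way. It stood at 10.16 to 22.01 CPM in positive libraries (median 19.47) and 11.52 to 16.09 CPM in negative libraries (median 14.79). Apart from positive 1, which was the lowest of all 14, every positive library was above all negative ones. The log2 fold change was 0.39 ± 0.14 (SE, edgeR adjusted p = 0.114), higher in 6 of 7 pairs, and 0.36 ± 0.10 with the block (adjusted p = 0.0334). Without positive 1 it was called without the block as well (0.48, adjusted p = 0.00383), and without the libraries numbered 6 and 7 it was not called even with the block (0.37, adjusted p = 0.148). A further gene model, Gm43738, overlaps 26.7% of its exon bases on the same strand and other copies share its sequence, so its reads could be split.

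The neighbouring early enzymes Mvk, Pmvk and Mvd, which phosphorylate and decarboxylate mevalonate, had log2 fold changes of -0.29 ± 0.11, -0.22 ± 0.09 and -0.17 ± 0.10 (SE), with adjusted p of 0.146, 0.162 and 0.383. None was called with the block (0.085, 0.0509 and 0.101 as adjusted p). Mvk was at 5.37 to 8.70 CPM in positive and 6.34 to 9.35 CPM in negative libraries, lower in 5 of 7 pairs. It was called without positive 7 (-0.38, adjusted p = 0.0423) and without the libraries numbered 6 and 7 (-0.46, adjusted p = 0.0421). Pmvk, at 57.61 to 79.66 CPM in positive and 64.26 to 92.94 CPM in negative libraries, was called without negative 3 (adjusted p = 0.0492).

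No other sterol synthesis gene was called in either fit with all libraries. Sqle, squalene epoxidase, a rate-controlling step of the sterol branch, was at 230.2 to 358 CPM in positive and 248.4 to 340.1 CPM in negative libraries, with a log2 fold change of 0.08 and a 95% interval of -0.13 to 0.29. Fdft1, squalene synthase, and Lss, which closes the rings, each gave -0.03, with intervals of -0.23 to 0.17 and -0.21 to 0.15. Exons of the abundant protease gene Ctsb overlap Fdft1 on the other strand, and 26.5% of its 50-base words occur in other transcripts. Cyp51, the demethylase of lanosterol, gave -0.20 ± 0.11 (SE, edgeR adjusted p = 0.329; 0.0518 with the block), and Msmo1, which acts after it, gave 0.00, at 275.2 ± 33.7 CPM in positive and 275.3 ± 36.2 CPM in negative cells (SD, n = 7 each). The sterol reductase Tm7sf2, Hsd17b7, the isomerase Ebp, the desaturase Sc5d and Dhcr7, which catalyses the last step of one branch, ranged from -0.20 to -0.03. Acat2, a thiolase at the start of the pathway, gave -0.03, and 39.1% of its 50-base words also occur in Acat3 or another gene.

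**Figure D2:**
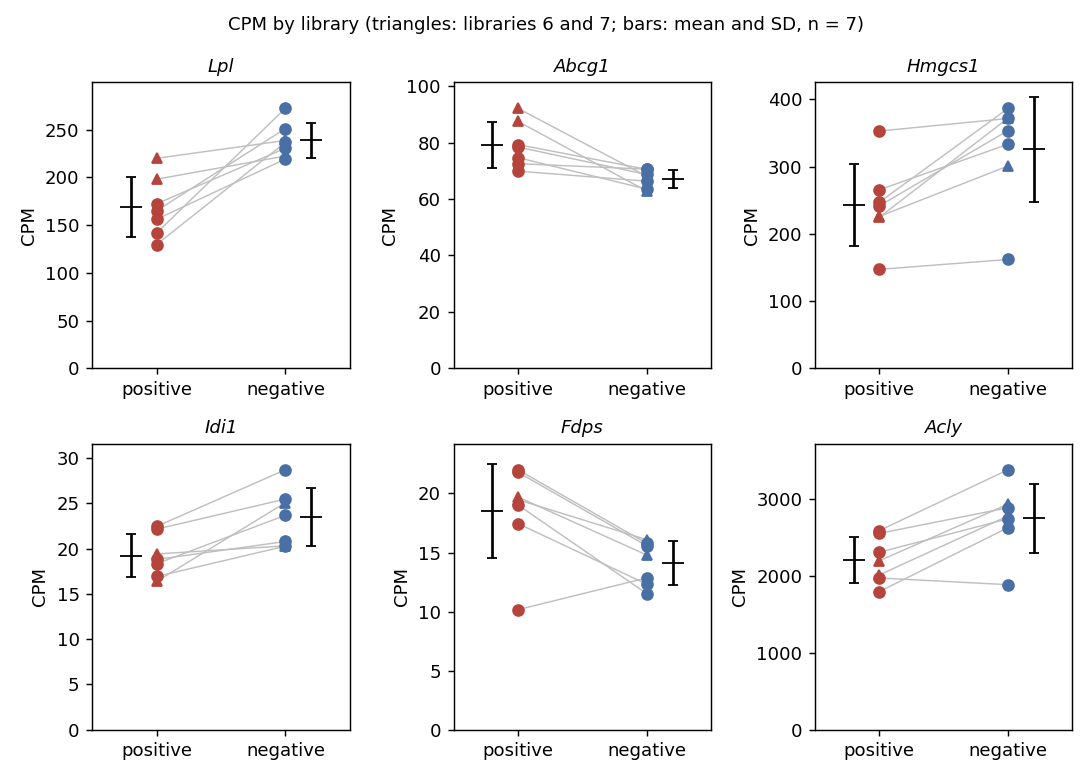
CPM of 6 genes in each library (y axes start at 0), positive libraries left of negative ones. Grey lines join libraries of the same number, triangles mark libraries 6 and 7, and black bars give the mean and SD of 7 libraries. Hmgcs1, Idi1 and Lpl slope upward to the negative library in all 7 pairs, Acly in 6 of 7, and Abcg1 slopes downward in all 7.

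All 5 regulators of the sterol response had point estimates below 0, from -0.18 to -0.05, and none was called without the block, where 1 had an unadjusted p below 0.05, against 3457 of all 16350 genes. Srebf1, which encodes SREBP1, had 87.34 to 108.2 CPM in positive libraries (median 97.66) and 96 to 119.4 CPM in negative libraries (median 111.9). It was lower in 6 of 7 pairs, with a log2 fold change of -0.18 ± 0.07 (SE, edgeR adjusted p = 0.116; 0.047 with the block). Without the libraries numbered 6 and 7 the block no longer called it (adjusted p = 0.235), and without negative 3 it was called with no block (-0.23, adjusted p = 0.0349). Counts are per gene, so the forms 1a and 1c were pooled. Srebf2, the factor of the cholesterol genes, was lower in 7 of 7 pairs by a log2 fold change of -0.12 ± 0.08 (SE, edgeR adjusted p = 0.477; 0.0652 with the block), at 182.5 ± 18.8 CPM in positive and 197.7 ± 22.3 CPM in negative cells (SD, n = 7 each).

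Insig1, itself a sterol-controlled gene, is often read as a gauge of SREBP activity. It was at 322.1 to 510.8 CPM in positive libraries (median 383.2) and 280.9 to 539.6 CPM in negative libraries (median 471.4). The positive range lay inside the negative one, and the log2 fold change of -0.10 had a 95% interval of -0.41 to 0.21, lower in 6 of 7 pairs. Insig2 and the escort protein gene Scap gave -0.06 and -0.05, with intervals of -0.35 to 0.23 and -0.16 to 0.05.

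Of the 6 transport and storage genes 1 was called without the block, Abcg1 (16.7%, against 8.03% of all genes). With the block Abcg1 rose and Stard4 fell (33.3%, against 19.6% of all genes). The median log2 fold change of the 6 was 0.02. Abcg1 encodes a half-transporter that exports cholesterol to lipoproteins and is a known LXR target (chromosome 17, 31057675 to 31117988, plus strand). Positive libraries had 69.86 to 92.12 CPM, with a median of 78.39, and negative libraries 62.81 to 70.56 CPM, with a median of 68.03. Only positive 5, at 69.86 CPM, fell within the negative range, and the positive library was higher in 7 of 7 pairs. The means were 79.2 ± 8.06 CPM in positive and 67.2 ± 3.14 CPM in negative cells (SD, n = 7 each), which is a log2 fold change of 0.24 ± 0.06 (SE, edgeR adjusted p = 0.0288; 0.0145 with the block). The 2 highest values, 92.12 and 87.51 CPM, were those of positive 6 and 7, the libraries richest in macrophage and in endothelial markers. Without the libraries numbered 6 and 7 the log2 fold change was 0.14 and was not called (adjusted p = 0.385; 0.0973 with the block). Leaving out a single library, negative 3, 4, 5, 6 or 7 or positive 6 or 7, also ended the call (adjusted p 0.0501 to 0.0919), as did testing all genes without a filter on low counts (0.0809).

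Abca1, the exporter that loads cholesterol onto apolipoprotein A-I, had a log2 fold change of nearly the same size, 0.22 ± 0.11 (SE, edgeR adjusted p = 0.255; 0.0652 with the block). It was at 261.8 to 383.8 CPM in positive libraries (median 304.4) and 230 to 353.7 CPM in negative libraries (median 259.3), higher in 6 of 7 pairs. Its highest positive values were in libraries 4 and 1 rather than in 6 and 7.

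Stard4, a cytosolic sterol carrier and SREBP2 target, was at 58.86 to 74.24 CPM in positive libraries (median 63.16) and 55.24 to 82.46 CPM in negative libraries (median 79.08). Its log2 fold change was -0.20 ± 0.08 (SE, edgeR adjusted p = 0.166; 0.0441 with the block), lower in 6 of 7 pairs. It was called without negative 3, the lowest negative library (-0.28, adjusted p = 0.0119), and with the block it was not called once the libraries numbered 6 and 7 were left out (0.184).

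Soat1, which esterifies cholesterol for storage, had the same mean in both groups, 29.3 ± 7.15 CPM in positive and 29.1 ± 2.33 CPM in negative cells (SD, n = 7 each), but was split within the positive group. Positive 6 and 7 had 42.66 and 34.97 CPM, whereas positive 1 to 5 had 22.65 to 27.98 CPM, and negative libraries had 27.06 to 33.76 CPM. The log2 fold change was 0.01 with all libraries and -0.22 without those numbered 6 and 7 (adjusted p = 0.306; 0.0492 with the block), so its direction turned. Nr1h3, which encodes LXR-alpha, turned too, with 0.03 in all libraries and -0.11 without those 4, and Nr1h2, which encodes LXR-beta, had 0.01 with an interval of -0.14 to 0.16. Macrophages are known to express Abcg1, Soat1 and Nr1h3. The part of such cells in these values was not tested, nor was that of the endothelial and other cells that also differed between libraries.

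**Figure D3:**
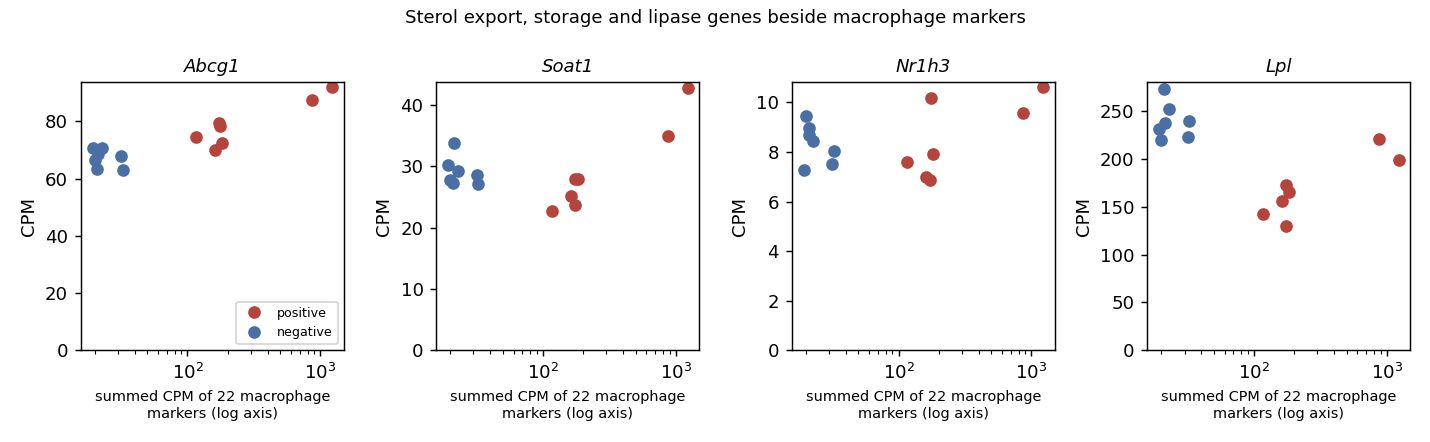
CPM of Abcg1, Soat1, Nr1h3 and Lpl (y axes, from 0) in each library against the summed CPM of 22 macrophage markers in the same library (x axis, log scale), positive libraries in red and negative in blue. Positive 6 (1222 CPM of markers) and positive 7 (867.7 CPM) have the highest Abcg1 and Soat1 of all 14 libraries, while Lpl in positive 1 to 5 lies below every negative library.

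The 5 fatty acid synthesis genes did not move as 1 group. None was called without the block, and with the block Acly fell (1 of 5, 20%, against 19.6% of all genes). Without the block 1 of the 5 had an unadjusted p below 0.05, against 3457 of all 16350 genes. Their median log2 fold change was -0.07. Acly, ATP citrate lyase, makes cytosolic acetyl-CoA for both cholesterol and fatty acids (chromosome 11, 100476353 to 100528000, minus strand). It was the most abundant of the 35, with 1794 to 2587 CPM in positive libraries (median 2195) and 1884 to 3378 CPM in negative libraries (median 2778). Negative 3 was the lowest negative library, and pair 3 alone did not show the lower positive value. The log2 fold change was -0.32 ± 0.12 (SE, edgeR adjusted p = 0.114; 0.0142 with the block). Without negative 3 it was -0.41 and called (adjusted p = 0.0119), and without the libraries numbered 6 and 7 the block no longer called it (-0.26, adjusted p = 0.118).

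Downstream of Acly no difference was called. Acaca, acetyl-CoA carboxylase, and Fasn, fatty acid synthase, gave 0.08 and 0.07 (95% intervals -0.12 to 0.27 and -0.13 to 0.28). Fasn was at 169.1 to 250 CPM in positive and 160.1 to 229.3 CPM in negative libraries. Of the words of Acaca, 30.4% occur in other transcripts, chiefly Gm5182. Scd2, the more abundant of the 2 stearoyl-CoA desaturases in these libraries, had 134.7 to 279.3 CPM in positive and 166.2 to 278.3 CPM in negative libraries, a log2 fold change of -0.07 with an interval of -0.41 to 0.27. Scd1, a low transcript here at 5.34 to 12.05 CPM in positive and 6.21 to 18.57 CPM in negative libraries, gave -0.27 with an interval of -0.75 to 0.21. Its highest negative value, 18.57 CPM, was in negative 3, and without that library the log2 fold change was -0.10.

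Lpl gave the largest difference of the 35. It encodes lipoprotein lipase, which frees fatty acids from circulating triglyceride and which beta cells, macrophages, muscle and fat cells are known to make (chromosome 8, 68880491 to 68907448, plus strand). Positive libraries held 129.7 to 220.1 CPM (median 165.1) and negative libraries 219.3 to 272.5 CPM (median 236.8). Only positive 7, at 220.1 CPM, reached the negative range, where negative 5 was lowest at 219.3 CPM. Means were 169.1 ± 31.5 CPM in positive and 238.8 ± 18.3 CPM in negative cells (SD, n = 7 each), which is a log2 fold change of -0.50 ± 0.10 (SE, edgeR adjusted p = 0.00443; 0.00758 with the block), lower in 7 of 7 pairs. The call held in every fit that left out 1 library (-0.59 to -0.46, adjusted p 0.00072 to 0.00976). In libraries 1 to 5 the groups did not overlap, with 129.7 to 172.4 CPM in positive and 219.3 to 272.5 CPM in negative libraries, and without those numbered 6 and 7 the log2 fold change was -0.66 (adjusted p = 0.000946). Of 8 fat cell markers, Adipoq, Plin1, Plin4, Cfd, Lep and Retn were at most 0.281 CPM in positive and 0.278 CPM in negative libraries. Fabp4, which endothelial cells and macrophages are also known to express, was at 7.35 to 32.21 CPM in positive and 0 to 1.85 CPM in negative libraries and was called higher, and Pparg was at 20.5 to 33.47 CPM in positive and 15.92 to 26.63 CPM in negative libraries. The 8 summed to 36.58 to 59.63 CPM in positive and 16.3 to 27.41 CPM in negative libraries, and their part in the lower Lpl was not tested. Positive 6 and 7, richest in macrophage and in endothelial markers, had the highest Lpl of the positive libraries.

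**Figure D4:**
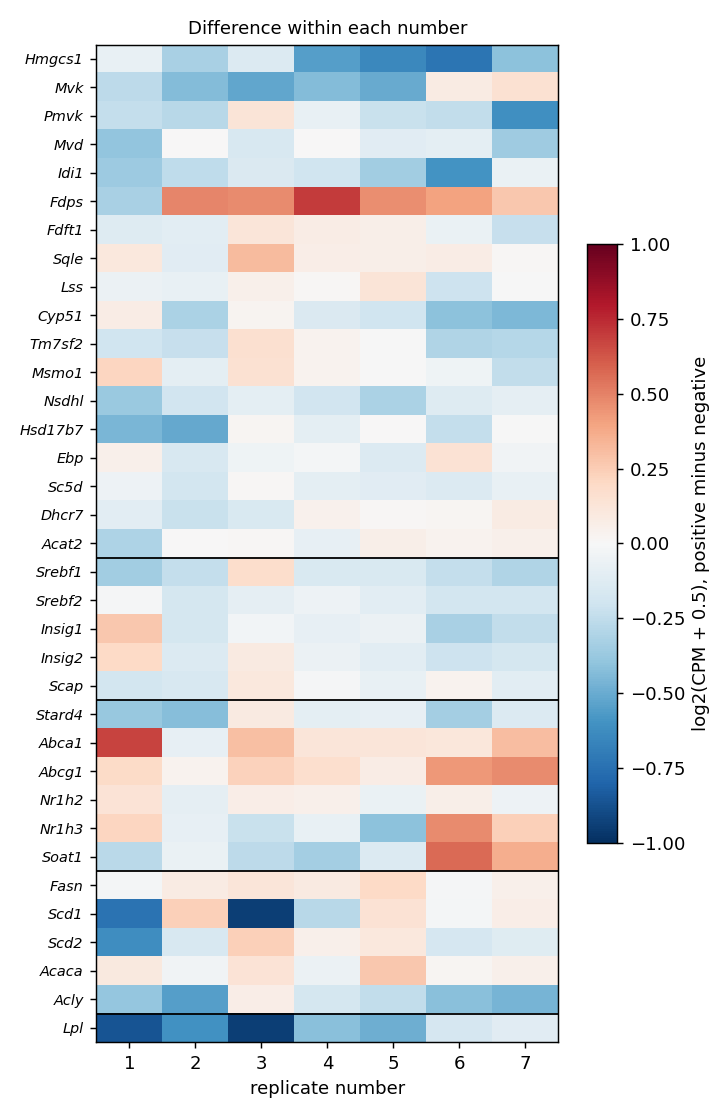
Difference of log2(CPM + 0.5), positive minus negative, within each replicate number (columns) for the 35 genes (rows, grouped by role with black lines). Blue is lower and red higher in the positive library, on a scale from -1 to 1. Lpl is blue in all 7 columns, with its largest difference in number 3 (-0.94), Fdps is red in 6 of 7, and Soat1 is red in numbers 6 and 7 alone.

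Levels per kilobase of annotated exon spanned over 2 orders of magnitude. Acly stood at 417 ± 56.7 CPM per kilobase in positive and 520 ± 85.1 in negative cells, followed by Insig1 at 134 ± 25.7 and 144 ± 30.1 (SD, n = 7 each). Acaca was lowest at 1.57 ± 0.214 CPM per kilobase in positive and 1.49 ± 0.167 in negative cells, and its many annotated isoforms give it 17074 bases of exon, which lowers the value. The genes also differed in how far libraries of a group lay apart. The coefficient of variation was lowest for Nr1h2 in positive cells (6.24%) and for Scap in negative cells (2.8%), and highest for Scd1 in both (26.8% and 37.9%). That of Soat1 was 24.4% in positive and 8% in negative cells, and that of Abcg1 was 10.2% and 4.67%.

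A further 43 genes of sterol and fatty acid metabolism gave 40 with enough reads. Of these 3 rose and 1 fell without the block, where 6.40% of all genes were called higher and 1.63% lower. With the block 9 rose and 2 fell, where 11.8% of all genes were called higher and 7.77% lower. Mylip, an LXR-controlled ubiquitin ligase that acts on lipoprotein receptors, stood at 20.19 to 37.85 CPM in positive libraries (median 24.11) and 12.63 to 17.32 CPM in negative libraries (median 13.79), without overlap. Its log2 fold change was 0.90 ± 0.15 (SE, edgeR adjusted p = 0.000969; 0.0107 with the block), and 0.59 without the libraries numbered 6 and 7 (adjusted p = 0.0103). Lipa, lysosomal acid lipase, which frees cholesterol from its esters, was at 16.10 to 67.39 CPM in positive and 8.59 to 10.16 CPM in negative libraries, a log2 fold change of 1.63 ± 0.34 (SE, edgeR adjusted p = 0.00759). Positive 6 and 7 had 67.39 and 50.12 CPM and positive 1 to 5 had 16.10 to 18.48 CPM, and without the libraries numbered 6 and 7 the log2 fold change was 0.88 (adjusted p = 4.83e-05). Elovl1, a fatty acid elongase, rose (0.28, adjusted p = 0.0488) and Abca7, a lipid transporter, fell (-0.28, adjusted p = 0.0469). With the block the edgeR adjusted p was 0.0151 for Elovl1, higher in 6 of 7 pairs, and 0.00148 for Abca7, lower in 7 of 7. Without the block, each of these 2 calls was lost in 11 of the 14 fits that left out 1 library (highest adjusted p 0.132 and 0.0902). Each was also lost without the libraries numbered 6 and 7 (0.289 and 0.239).

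The counts limit what could be seen. Total counts were 15585779 to 24577025 in positive and 11060144 to 23045934 in negative libraries. On simulated counts with 7 against 7 libraries, the test without the block recovered 80% of 2-fold and 46% of 1.5-fold changes. It recovered 6% of the smallest changes simulated, which were below 1.5-fold. The changes were given to a random subset of the genes, and 16173 genes were tested. That subset was not chosen to match the 35 in counts, so these shares need not hold for them. The simulated libraries also had no likeness between those of the same number, unlike the deposited ones. These shares therefore do not bear on the fit with the block. Differences of the 35 were all below 1.5-fold, so a gene that was not called may still differ.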

How the data were processed

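RNA was sequenced from 14 libraries of sorted islet cells. Per the series' design text and the submitters' processing notes, reads were aligned to GRCm38 with Subread and counted per gene with featureCounts. Versions, annotation and strand setting are not given in the sources used here. What the authors deposited is a table of raw counts per gene, and all 14 columns were matched to samples by the column name in the titles. No label ties a library to its own animals. The p-values therefore reflect only how far these libraries vary, and part of that may be technical.

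Differences between groups were tested in R 4.3.3 by edgeR 4.0.16 (filterByExpr, TMM scaling, robust quasi-likelihood F-test with group as the only term, two-sided). DESeq2 1.42.0 was an alternative. The members and lists were chosen with earlier results of these data known. All 35 members are named, with full values for those called without the block, those called with it beyond a log2 fold change of 0.3, and the lowest p of each role, and other members by their ranges. Other pathway genes are named where called without the block. The values of Nsdhl, Mvk, Pmvk, Msmo1, Srebf2, Insig1, Abca1, Stard4, Soat1 and Scd1 were added after their results were seen.

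Numbers were taken to pair the libraries because deviations of same-numbered libraries from their group means correlated across genes (0.203 to 0.541 in 7 of 7 pairs). The median for different numbers was -0.125. Deviations from a group mean sum to 0, so positive values for same numbers push those for different numbers below 0. That median is therefore no separate evidence for the pairing. Whether a number stands for the same animals is not labelled. No replicates agreed within sampling noise (lowest chi-square per degree of freedom 5.36). Coordinates, exon lengths and 50-base words shared with other genes come from GENCODE M21 on GRCm38, whose gene models may differ from those counted. Overlapping and antisense genes are uncertain, since the strand setting is not known.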

Additional observations from a re-analysis of the deposited data

Results flagged for a closer look

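In 5 of the 70 sets of 7 libraries (35 genes in 2 groups), 1 library lay far from the other 6 by Dixon's criterion. Chance gives about 1 such set in 20. Positive 1 had 10.16 CPM of Fdps, with the next positive library at 17.45. Negative 3 had 161.8 CPM of Hmgcs1, with the next negative library at 300.9. The other 3 were in negative 1, which had 67.14 CPM of Fdft1 (next 84.02), 34.61 CPM of Hsd17b7 (next 24.61) and 149.9 CPM of Srebf2 (next 196).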

How the results depend on the processing

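With the replicate number as a block the counts of calls were 3200 over all genes, 9 of the 35 members, 4 of sterol synthesis, 1 of regulation, 2 of transport and storage, 1 of fatty acid synthesis and 11 other pathway genes. Without a filter on low counts 1 member and 0 transport and storage genes were called, against 4.80% of all genes. DESeq2 called 2078 genes in all (9.31%) and 1 sterol synthesis gene. Without the libraries numbered 6 and 7, 581 genes in all were called (3.55%). Among them were 1 of sterol synthesis (Mvk), 0 of transport and storage and 2 other pathway genes. With the block as well, 5 members and 3 of sterol synthesis were called, against 9.51% of all genes. Leaving out 1 library at a time gave 965 to 1883 genes in all (5.82% to 11.3%) and 1 to 7 members. Sterol synthesis gave 0 to 3, regulation, transport and storage, and fatty acid synthesis each 0 to 1, and other pathway genes 2 to 4. The highest of these came without negative 3 for all genes, members and sterol synthesis. The cause of these shifts was not tested.

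Signs turned for 8 members, none of them called with all libraries. Without the libraries numbered 6 and 7, and then with the block as well, the log2 fold changes became 0.017 and 0.007 for Fdft1, 0.008 and 0.013 for Lss, 0.059 and 0.061 for Msmo1, -0.113 and -0.117 for Nr1h3, and -0.217 and -0.219 for Soat1, the last of which was called. With the block alone, Msmo1 gave 0.001 and Soat1 -0.016, and with no filter Nr1h2 gave -0.008 and Soat1 -0.013. Leaving out 1 library gave ranges of -0.093 to 0.019 for Fdft1, -0.088 to 0.014 for Lss, -0.058 to 0.034 for Msmo1, -0.084 to 0.005 for Acat2, -0.036 to 0.037 for Nr1h2, -0.039 to 0.081 for Nr1h3, -0.121 to 0.062 for Soat1 and -0.147 to 0.011 for Scd2. DESeq2 size factors in edgeR left the direction and call of all 35 members as they were.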
